A study of Mus musculus with 11 samples.

Results

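The 9 genes described here, Acta2, Tagln, Cnn1, Myl9, Tpm1, Tpm2, Srf, Ctgf and Cyr61, belong to the contractile and serum response programme. They were taken by gene symbol from a table of 37991 mouse genes measured by RNA sequencing, and each symbol matched 1 row. Neural stem cells from the frontal cortex of C57BL/6J embryos at embryonic day 14.5 were sampled in NeuroCult proliferation medium (group NSC, day 0, 3 libraries) or 4 days after a change of medium. The Astrocyte group (3 libraries) received Dulbecco's Modified Eagle Medium holding 1% fetal bovine serum and 1% N-2. The Neuron group (3 libraries) received Neurobasal with B-27 at 2%, and the Oligodendrocyte group (2 libraries) was in that same medium plus the thyroid hormone T3 at 30 ng/mL. All differentiation media held GlutaMAX, and all flasks were coated with PDL and LMN, as the labels abbreviate it. Of the day 4 media only the astrocyte medium was listed with serum. Its base medium and supplement also differed from the others, so serum cannot be told apart from these, and day 4 cannot be told apart from the change of medium. Group names stand for the medium a culture received.

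Serum contains lipids and growth factors that act on the actin cytoskeleton. When actin polymerises, cofactors of the MRTF family (Mkl1 and Mkl2) enter the nucleus and bind serum response factor, the product of Srf, which occupies CArG boxes in the promoters of actin, transgelin, calponin, myosin light chain and tropomyosin genes. Ctgf and Cyr61, now called Ccn2 and Ccn1, encode secreted matricellular proteins and are used as readouts of YAP and TAZ acting with TEAD factors, which also respond to serum and to tension. In the brain these contractile genes are best known from smooth muscle cells and pericytes of vessels, and several of them are also made by cultured or reactive astrocytes.

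Levels are given in CPM, read counts scaled to the size of the library. From the spacing of low values, 49.3 to 66.2 M (mega) reads were estimated to stand behind a library, so that 1 read was worth 0.0151 to 0.0203 CPM. Summed levels of 6 astrocyte markers, which include Gfap and Aqp4, were 1429 to 1481 CPM in NSC, 11070 to 12690 in Astrocyte, 6881 to 7461 in Neuron and 2065 to 2278 in Oligodendrocyte. Gfap made up most of the Astrocyte sum, with a mean of 7631 CPM there and 2647 in Neuron. In the tests described below, 2 of the 6 (Gfap and Aqp4) were higher in Astrocyte than in Neuron and 4 were lower. Of all tested genes, 40.3% were higher and 22% lower. The myelin gene Mbp was at 30 to 46.99 CPM in Astrocyte, 456.36 to 521.84 in Neuron and 532.79 to 654.74 in Oligodendrocyte. The 6 neuron markers summed to 850.3 to 940.6 CPM in NSC, 761.9 to 794.1 in Astrocyte, 896.5 to 1177 in Neuron and 788.8 to 799.8 in Oligodendrocyte. Mtap2 made up most of these sums, and its mean was 865.6 CPM in Neuron beside 885.3 at day 0. When Astrocyte was tested against Neuron, 3 of the 6 were lower, 1 was higher and 2 did not pass. Rbfox3, of mature neurons, was among the lower ones (1.09 against 2.34 CPM). Tubb3 was the higher one (41.16 against 28.45 CPM, 0.48), a call lost after median-of-ratios scaling (0.37, adjusted p 0.0802). Dcx, of young neurons, rose from 1.6 CPM at day 0 to 124.8 (Astrocyte) and 147.7 (Neuron), which did not differ beyond the test (-0.21). The Neuron group thus held high levels of astrocyte markers and of Mbp. Mitochondrial genes took 4.54% to 4.71% of the CPM total in NSC and 6.13% to 8.91% in the day 4 libraries, and their part in the results below was not tested. In bulk RNA, fewer cells of a type and less RNA per cell cannot be told apart.

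The 9 genes did not move as a unit. Acta2, Myl9 and Cyr61 had their highest mean in the Astrocyte group. Ctgf and Cyr61 rose in every day 4 group, including those without listed serum. Srf, Tagln, Tpm1 and Tpm2 were highest at day 0 and fell in every medium, and Cnn1 was close to absent throughout. The plot of levels by library shows these patterns.

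**Figure D1:**
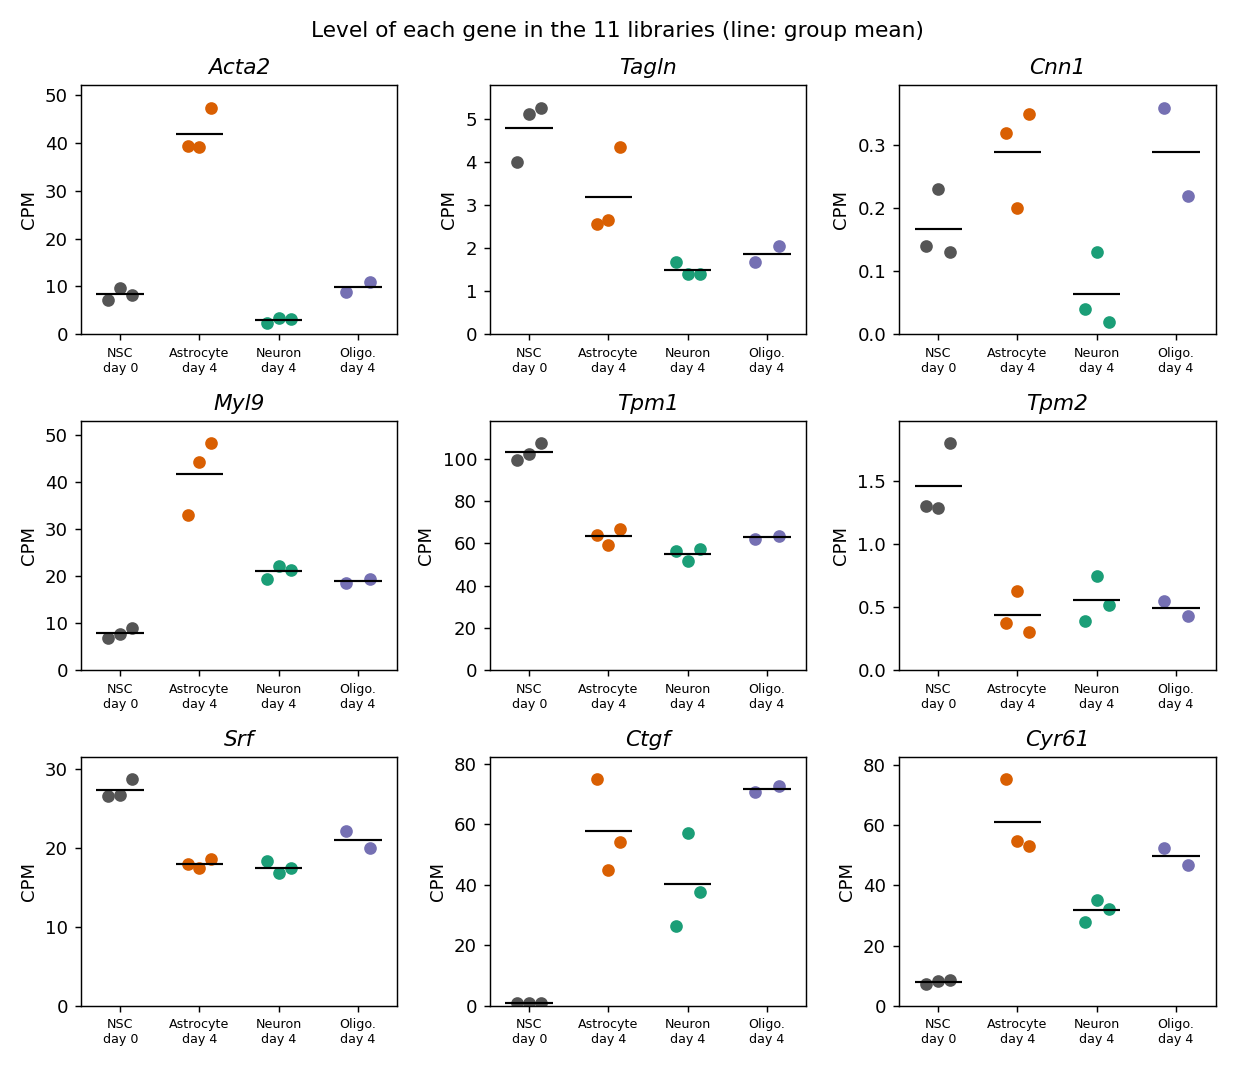
Level of each of the 9 genes in CPM (vertical axes, linear, each from 0) in the 11 libraries, by group. Points are libraries and horizontal lines group means. Acta2 sits at 39.10 to 47.45 CPM in Astrocyte and at no more than 10.86 CPM elsewhere, while Ctgf is below 1 CPM in all NSC libraries.

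For tests, log2(CPM + 1) was used, and the 13342 genes that reached 1 CPM in 2 libraries or more were fitted together, a gene being called at an adjusted p under 0.05. Of the 9 genes 8 passed this filter. Cnn1 did not, and Tpm2 passed only through its NSC values, so its falls are partly built in. Ctgf, under 1 CPM in every NSC library, passed only through day 4 libraries, so its rises are partly built in. Against NSC, 4 of the 8 were higher and 4 lower in Astrocyte, where 83.6% of all tested genes were called, 48% higher and 35.6% lower. In Neuron 3 were higher and 5 lower, against 43.5% and 39.6% of all genes (83.1% in either direction). In Oligodendrocyte 3 were higher and 4 lower, against 48.1% and 32.2% (80.2%). With most genes called in each of these comparisons, the number of calls among the 8 is no result in itself. The 3 comparisons share the NSC libraries.

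Between media, 6 of the 8 genes were higher and 0 lower in Astrocyte than in Neuron, against 40.3% and 22% of all tested genes (62.2% in either direction). With unadjusted p under 0.05 the counts were the same, 6 and 0, in limma, the tool used for all tests. The 6 became 4 after median-of-ratios scaling or quantile normalization, 5 with the replicate number as a block, and 4 without Astrocyte replicate 3. Their median log2 fold change was 0.64, while that of all genes was 0.10. In Oligodendrocyte vs Neuron 5 were higher and 0 lower, against 43.9% and 23.6% (67.5%), and the unadjusted limma counts were again 5 and 0. Their median was 0.22 beside 0.15 for all genes. The 5 became 3 when the libraries were rescaled by median-of-ratios or quantile normalization, and 3 without Oligodendrocyte replicate 1. In Oligodendrocyte vs Astrocyte 1 was higher and 3 lower, against 28.7% and 23.5% (52.2%), and without Oligodendrocyte replicate 1 the 4 calls were 2. Over all genes, 64.7% of calls were higher in Astrocyte vs Neuron, 52.7% after median-of-ratios scaling and 48.5% after quantile normalization. Under the same 3 scalings the share was 65.1%, 52.4% and 48% for Oligodendrocyte vs Neuron, and 59.9%, 49.7% and 47.7% for Oligodendrocyte vs NSC. Small differences have to be read against those shifts. Acta2 and Myl9 were the 2 genes called higher in Astrocyte than in each of the other 3 groups, which held for 10.3% of all tested genes. With quantile normalization Cyr61 joined them, making 3.

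Acta2 (ENSMUSG00000035783, mm9 chromosome 19, 34315580 to 34329826, minus strand) encodes the alpha actin of smooth muscle. Its level was 7.06, 9.76 and 8.26 CPM in NSC, 39.47, 39.10 and 47.45 CPM in Astrocyte, 2.27, 3.38 and 3.16 CPM in Neuron, and 8.85 and 10.86 CPM in Oligodendrocyte. The Astrocyte libraries lay far above all others, the Neuron libraries below all others, and NSC and Oligodendrocyte overlapped. Mean CPM in Astrocyte was 14.3 times that in Neuron, a difference of 3.46 on the log2 scale (SE 0.13, adjusted p 3.01e-10), which placed Acta2 at rank 7 from the top among the 13342 genes. Against NSC it rose in Astrocyte by 2.20 on the log2 scale (SE 0.13, adjusted p 2.3e-09) and fell in Neuron by 1.25 (SE 0.13, adjusted p 1.02e-06). Oligodendrocyte did not pass the test against NSC (0.22, 95% interval -0.11 to 0.54, adjusted p 0.196), and it was above Neuron by 1.47 (SE 0.15, adjusted p 1.67e-06) and below Astrocyte (-1.99, SE 0.15, adjusted p 1.78e-07). The media of Oligodendrocyte and Neuron differ in the labels by T3. Acta2 shares much of its coding sequence with other actin genes, and how reads matching several genes were treated is not given in the sources used here.

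Myl9 (ENSMUSG00000067818, mm9 chromosome 2, 156601156 to 156607394, plus strand) encodes a regulatory light chain of smooth muscle and non-muscle myosin, whose phosphorylation starts contraction. It stood at 6.89, 7.62 and 8.95 CPM in NSC, 32.94, 44.26 and 48.24 CPM in Astrocyte, 19.46, 22.08 and 21.37 CPM in Neuron, and 18.46 and 19.33 CPM in Oligodendrocyte. All day 4 libraries were above all NSC libraries, and the Astrocyte libraries were above the rest. The log2 fold change against NSC was 2.27 in Astrocyte (SE 0.12, adjusted p 7.06e-10), 1.32 in Neuron (SE 0.12, adjusted p 2.44e-07) and 1.18 in Oligodendrocyte (SE 0.14, adjusted p 2.86e-06). Astrocyte exceeded Neuron by 0.95 (SE 0.12, adjusted p 1.84e-05), and Oligodendrocyte was below Astrocyte (-1.09, adjusted p 2.23e-05). Neuron and Oligodendrocyte did not differ beyond the test (-0.14, 95% interval -0.44 to 0.16, adjusted p 0.38). Myl9 thus also rose in media with no listed serum, where Acta2 fell or did not pass.

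Promoter sequences of Acta2 and Myl9, the contractile genes called higher in Astrocyte than in each other group, are shown because CArG boxes are the sites through which serum response factor is known to act on such genes. RefSeq promoters (GRCm38.p6) were held for 7 of the 9 genes, and Tagln and Ctgf were not among them. The 250 bases before each RefSeq start were searched on both strands for the CArG box, allowing 1 mismatch, and for CATTCC, the core of the TEAD site. Matches are in capitals, and no match of one motif overlapped a match of the other.
Acta2, chr19:34255374-34255623, minus strand: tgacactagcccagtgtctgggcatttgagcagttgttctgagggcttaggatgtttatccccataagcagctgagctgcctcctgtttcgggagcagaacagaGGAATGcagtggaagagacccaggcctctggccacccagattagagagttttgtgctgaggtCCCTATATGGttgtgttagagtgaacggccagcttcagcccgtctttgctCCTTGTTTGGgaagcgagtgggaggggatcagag
Myl9, chr2:156775214-156775463, plus strand: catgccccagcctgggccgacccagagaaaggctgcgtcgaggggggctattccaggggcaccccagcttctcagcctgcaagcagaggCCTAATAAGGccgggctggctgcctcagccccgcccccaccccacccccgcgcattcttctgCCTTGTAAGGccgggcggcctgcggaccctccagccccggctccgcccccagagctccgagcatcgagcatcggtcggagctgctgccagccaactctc
Acta2 had CArG matches with 1 mismatch beginning 84 and 34 bases before the start, and the TEAD core, read on the other strand as GGAATG, at 146. Myl9 had a CArG box without mismatch at 161 and a match with 1 mismatch at 99. Among 32851 promoters in the RefSeq table, 1.47% held a CArG box without mismatch, 18.6% one with at most 1 mismatch, and 12.6% the TEAD core. Of the 7 genes with a sequence, 2 held a CArG box without mismatch, 4 one with at most 1 mismatch and 3 the TEAD core. These are matches of letters in a window and not measured binding.

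Tagln (ENSMUSG00000032085, mm9 chromosome 9, 45737711 to 45744141, minus strand) encodes transgelin, an actin-binding protein and early smooth muscle marker. It was at 4.00, 5.12 and 5.27 CPM in NSC, 2.56, 2.66 and 4.36 CPM in Astrocyte, 1.68, 1.41 and 1.40 CPM in Neuron, and 1.68 and 2.05 CPM in Oligodendrocyte. NSC was highest, although Astrocyte replicate 3 overlapped it. The falls against NSC were -0.49 in Astrocyte (SE 0.15, adjusted p 0.00716), -1.21 in Neuron (SE 0.15, adjusted p 3.4e-06) and -1.01 in Oligodendrocyte (SE 0.16, adjusted p 6.24e-05). Astrocyte was above Neuron by 0.72 (SE 0.15, adjusted p 0.000739) and Oligodendrocyte below Astrocyte (-0.53, SE 0.16, adjusted p 0.0156), the latter no longer called without Oligodendrocyte replicate 1 (-0.43, adjusted p 0.124). Tagln therefore shared with Acta2 a higher level in Astrocyte than in the other day 4 groups, but at a level below day 0. Its annotated span overlaps that of Pcsk7 on the opposite strand by 65 of 6431 bases, and whether counting used the strand is not given in the sources used here.

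Cnn1 (ENSMUSG00000001349, mm9 chromosome 9, 21903725 to 21914074, plus strand) encodes calponin of differentiated smooth muscle. No library reached 1 CPM. It was listed at 0.14, 0.23 and 0.13 CPM in NSC, 0.32, 0.20 and 0.35 CPM in Astrocyte, 0.04, 0.13 and 0.02 CPM in Neuron, and 0.36 and 0.22 CPM in Oligodendrocyte. These correspond to an estimated 8 to 13 reads per library in NSC, 13 to 21 in Astrocyte, 1 to 7 in Neuron and 14 to 23 in Oligodendrocyte, and no test was made.

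The tropomyosins lie along actin filaments and steady them. Tpm1 (ENSMUSG00000032366, mm9 chromosome 9, 66870397 to 66897213, minus strand) was at 99.57, 102.21 and 107.34 CPM in NSC, 63.87, 59.01 and 66.93 CPM in Astrocyte, 56.43, 51.83 and 57.26 CPM in Neuron, and 62.15 and 63.59 CPM in Oligodendrocyte. Every day 4 library was below every NSC library. The log2 fold change was -0.70 in Astrocyte (SE 0.063, adjusted p 1.75e-07), -0.89 in Neuron (SE 0.063, adjusted p 1.33e-08) and -0.70 in Oligodendrocyte (SE 0.071, adjusted p 6.07e-07). The small excess over Neuron of 0.19 in Astrocyte (adjusted p 0.0171) and 0.19 in Oligodendrocyte (adjusted p 0.0324) was not called after median-of-ratios scaling (0.09 and 0.05, adjusted p 0.181 and 0.528). The first was also lost without Astrocyte replicate 3 (0.15, adjusted p 0.0763), and the second without Neuron replicate 2 (0.14, adjusted p 0.0699), without Oligodendrocyte replicate 1 (0.20, adjusted p 0.0848) and without Oligodendrocyte replicate 2 (0.17, adjusted p 0.144).

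Tpm2 (ENSMUSG00000028464, mm9 chromosome 4, 43527583 to 43536637, minus strand), the beta form of muscle tropomyosin, was at 1.3, 1.29 and 1.8 CPM in NSC, 0.37, 0.63 and 0.30 CPM in Astrocyte, 0.39, 0.75 and 0.52 CPM in Neuron, and 0.55 and 0.43 CPM in Oligodendrocyte. NSC did not overlap the day 4 groups, which overlapped each other. The falls against NSC were -0.78, -0.67 and -0.72 in Astrocyte, Neuron and Oligodendrocyte (adjusted p 3.57e-05, 0.000158 and 0.000228). No comparison between media was called, and the 95% interval for Astrocyte vs Neuron was -0.38 to 0.14. The gene rests on an estimated 18 to 107 reads per library.

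**Figure D2:**
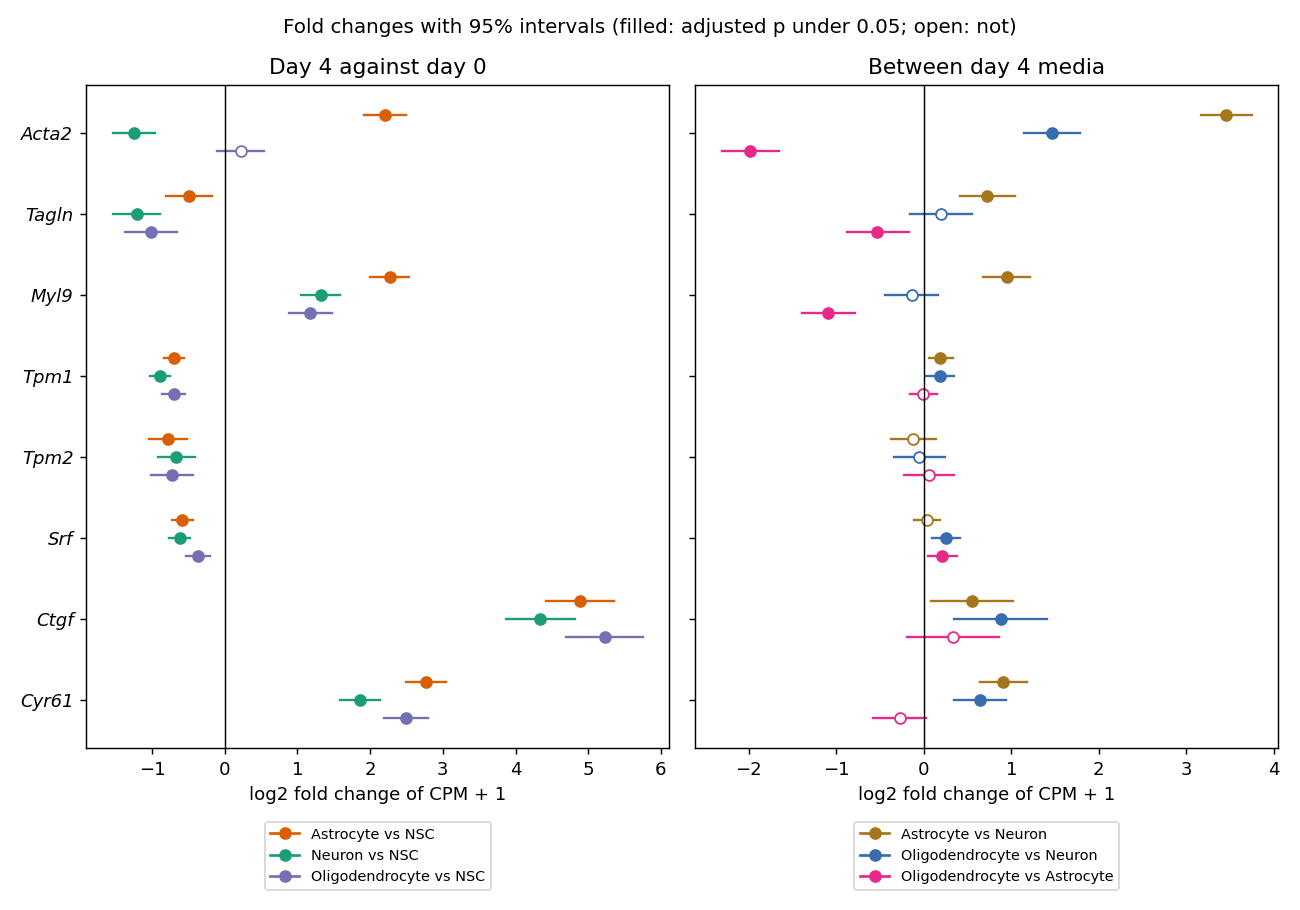
Difference of mean log2(CPM + 1) for the 8 tested genes, against day 0 (left) and between day 4 media (right), with 95% intervals from the pooled spread. Filled points were called and open points were not. On the left, Ctgf, Cyr61 and Myl9 lie above 0 in all 3 media and Tagln, Tpm1, Tpm2 and Srf below 0, while Acta2 lies on opposite sides in Astrocyte (2.20) and Neuron (-1.25).

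Srf (ENSMUSG00000015605, mm9 chromosome 17, 46683788 to 46693111, minus strand) encodes the transcription factor itself. Its level was 26.51, 26.72 and 28.66 CPM in NSC, 17.94, 17.41 and 18.53 CPM in Astrocyte, 18.28, 16.79 and 17.41 CPM in Neuron, and 22.07 and 19.94 CPM in Oligodendrocyte. All NSC libraries were above all day 4 libraries, and the Astrocyte and Neuron libraries overlapped. Srf fell by 0.58 on the log2 scale in Astrocyte (SE 0.068, adjusted p 2.49e-06), by 0.61 in Neuron (SE 0.068, adjusted p 1.37e-06) and by 0.36 in Oligodendrocyte (SE 0.076, adjusted p 0.000574). Astrocyte and Neuron differed by 0.04 (95% interval -0.11 to 0.18, adjusted p 0.66), a sign that turned under median-of-ratios scaling (-0.06) and quantile normalization (-0.14). In Oligodendrocyte it was 0.25 above Neuron (adjusted p 0.0103; 0.12 and adjusted p 0.159 after median-of-ratios scaling; 0.18 and adjusted p 0.12 without Oligodendrocyte replicate 1). It was 0.21 above Astrocyte (adjusted p 0.0301), and that call was lost without Astrocyte replicate 1 (0.21, adjusted p 0.0587), without Astrocyte replicate 2 (0.19, adjusted p 0.0875) and without Oligodendrocyte replicate 1 (0.14, adjusted p 0.244). The RNA of the factor itself was thus lower at day 4 in each medium, the serum medium included. Srf lies within the span of the antisense gene Gm16736, which was at 0.02 CPM or less in all libraries.

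Srf is itself a textbook target of serum response factor, and its promoter held the most CArG matches of the 7 sequences.
Srf, chr17:46556163-46556412, minus strand: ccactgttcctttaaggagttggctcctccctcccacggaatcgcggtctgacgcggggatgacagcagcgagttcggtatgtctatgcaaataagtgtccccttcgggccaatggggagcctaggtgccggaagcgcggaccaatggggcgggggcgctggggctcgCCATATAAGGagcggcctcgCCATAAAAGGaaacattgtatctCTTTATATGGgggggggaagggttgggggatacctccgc
The boxes without mismatch, CCATATAAGG and CCATAAAAGG, began 82 and 62 bases before the RefSeq start, and a match with 1 mismatch began at 39. In Astrocyte Srf fell where Acta2 and Myl9 rose.

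Of 6 listed cofactors of serum response factor 5 were tested, and Myocd, the smooth muscle and heart cofactor, was not, with a mean of 0.03 CPM in Oligodendrocyte, 0.01 in Astrocyte and 0 in the other groups. Against NSC 3 fell and 1 rose in Astrocyte, 4 fell and 1 rose in Neuron, and 3 fell in Oligodendrocyte. Of all tested genes 35.6%, 39.6% and 32.2% fell and 48%, 43.5% and 48.1% rose in these comparisons. In Astrocyte vs Neuron 3 were higher, against 40.3% of all genes, namely those named here. Mkl2 averaged 38.24 ± 3.74 CPM in Astrocyte, 23.29 ± 4.57 in Neuron, 45.99 ± 5.32 in NSC (SD, n = 3 for these) and 41.48 ± 3.56 in Oligodendrocyte (SD, n = 2), and Astrocyte exceeded Neuron by 0.71 on the log2 scale (adjusted p 0.000365). Mkl1 averaged 12.83 ± 0.777, 9.23 ± 1.71 and 18.65 ± 0.437 CPM in Astrocyte, Neuron and NSC (SD, n = 3 each), a difference of 0.45 in Astrocyte vs Neuron (adjusted p 0.00262). Both MRTF genes were thus higher in Astrocyte than in Neuron. They were also higher in Oligodendrocyte than in Neuron (Mkl1 0.4, Mkl2 0.82), and did not pass against Astrocyte (-0.05 and 0.12). Mkl1 averaged 12.35 ± 0.905 CPM in Oligodendrocyte (SD, n = 2). Of the 5 cofactors 3 were higher and 2 lower in Oligodendrocyte vs Neuron, against 43.9% and 23.6% of all tested genes. Elk3, a ternary complex factor that partners serum response factor at immediate early genes, was 0.35 higher in Astrocyte than in Neuron (adjusted p 0.00176).

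The immediate early genes of the serum response were mixed. Of 8 such genes 4 were higher and 3 lower in Astrocyte than in Neuron, against 40.3% and 22% of all tested genes, with a median of 0.14 beside 0.10 for all genes. Of the 4, Fos was not called after median-of-ratios scaling (0.21, adjusted p 0.103) or quantile normalization (0.20, adjusted p 0.105), Mcl1 not after the former (0.09, adjusted p 0.221) and Fosb, which passed the filter only through Astrocyte, not after the latter (0.26, adjusted p 0.0578). Egr1, a zinc finger factor and classic serum-induced gene, averaged 25.17 ± 3.44 CPM in Astrocyte, 39.35 ± 3.46 in Neuron, 193.7 ± 20.3 in NSC (SD, n = 3 for these) and 28.84 ± 7.30 in Oligodendrocyte (SD, n = 2). In Astrocyte vs Neuron its difference was -0.63 (adjusted p 0.000823). Egr2, a related factor, differed by -1.22 in that comparison (adjusted p 6.3e-07), whereas Junb was higher (0.55, adjusted p 0.000169). The medium had been changed every 48 hours, and the time between the last change and sampling is not given in the sources used here.

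Ctgf (ENSMUSG00000019997, mm9 chromosome 10, 24315248 to 24318489, plus strand) had the largest change of the 8 tested genes. It was at 0.96, 0.98 and 0.88 CPM in NSC, 74.80, 44.85 and 53.97 CPM in Astrocyte, 26.38, 57.07 and 37.43 CPM in Neuron, and 70.53 and 72.69 CPM in Oligodendrocyte. NSC was far below every day 4 library, while Astrocyte overlapped both other day 4 groups. All NSC values were under 1 CPM, so Ctgf passed the filter only through day 4 libraries and its rises are partly built in. Mean CPM was 61.6 times the NSC mean in Astrocyte, 42.9 times in Neuron and 76.2 times in Oligodendrocyte. The log2 fold changes were 4.89 (SE 0.22, adjusted p 8.39e-11), 4.34 (SE 0.22, adjusted p 3.24e-10) and 5.23 (SE 0.24, adjusted p 1.82e-10), at ranks 47, 69 and 40 from the top among the 13342 genes of each comparison. Oligodendrocyte exceeded Neuron by 0.88 (SE 0.24, adjusted p 0.00597) and was not told apart from Astrocyte (0.33, 95% interval -0.19 to 0.86, adjusted p 0.27). The excess of Astrocyte over Neuron was 0.55 (SE 0.22, adjusted p 0.0429). That call was lost in 10 of 15 alternatives, among them without Astrocyte replicate 1 (0.35, adjusted p 0.191), without Astrocyte replicate 3 (0.58, adjusted p 0.0676), without Neuron replicate 1 (0.29, adjusted p 0.207), without Neuron replicate 3 (0.53, adjusted p 0.0967), after median-of-ratios scaling (0.45, adjusted p 0.0983) and with the replicate number as a block (0.55, adjusted p 0.0679). The span of Ctgf overlaps by 1667 of 3242 bases the antisense gene Gm15270, which reached 1.33 CPM at most.

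Cyr61 (ENSMUSG00000028195, mm9 chromosome 3, 145309935 to 145312949, minus strand) was at 7.26, 8.09 and 8.63 CPM in NSC, 75.19, 54.58 and 53.04 CPM in Astrocyte, 27.66, 35.25 and 32.16 CPM in Neuron, and 52.46 and 46.88 CPM in Oligodendrocyte. No 2 groups overlapped, in the order NSC, Neuron, Oligodendrocyte, Astrocyte. The log2 fold change against NSC was 2.77 in Astrocyte (SE 0.12, adjusted p 9.3e-11), 1.86 in Neuron (SE 0.12, adjusted p 7.05e-09) and 2.49 in Oligodendrocyte (SE 0.14, adjusted p 1.21e-09). Neuron was lowest of the day 4 groups, with 0.91 between it and Astrocyte (SE 0.12, adjusted p 2.82e-05) and 0.64 between it and Oligodendrocyte (SE 0.14, adjusted p 0.00124). Oligodendrocyte vs Astrocyte did not pass (-0.27, 95% interval -0.58 to 0.03, adjusted p 0.117; adjusted p 0.0398 after quantile normalization). In the medium with T3 added, Ctgf, Cyr61 and Acta2 were thus higher than in the neuron medium. Tpm1 and Srf were too, with calls lost after rescaling, and Myl9, Tagln and Tpm2 did not pass. The Cyr61 promoter is shown for the TEAD core that it holds.
Cyr61 (RefSeq symbol Ccn1), chr3:145649986-145650235, minus strand: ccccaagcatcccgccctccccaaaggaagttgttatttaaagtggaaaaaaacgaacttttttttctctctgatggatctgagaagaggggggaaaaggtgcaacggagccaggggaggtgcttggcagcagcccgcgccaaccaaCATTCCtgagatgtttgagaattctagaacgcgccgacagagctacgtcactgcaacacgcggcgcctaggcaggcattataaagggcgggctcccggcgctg
The core began 103 bases before the start. No CArG match with at most 1 mismatch lay in this window, in contrast to the Acta2, Myl9 and Srf windows. Tpm1, which fell in every medium, had 2 CArG matches with 1 mismatch and the TEAD core. Cnn1 and Tpm2 had no match of either motif.

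Other genes of the CCN family stayed low. Nov and Wisp1 did not pass the filter, and Wisp2, now called Ccn5, averaged 2.37 ± 1.29 CPM in Astrocyte, 0.0267 ± 0.0306 in Neuron, 0.0800 ± 0.0173 in NSC (SD, n = 3 for these) and 0.330 ± 0.311 in Oligodendrocyte (SD, n = 2). Wisp2 passed the filter only through Astrocyte, so its difference from Neuron (1.65, adjusted p 8.63e-06) is partly built in. Of 13 listed YAP and TEAD pathway genes 12 were tested. Against NSC 8 rose and 4 fell in Astrocyte, 7 rose and 4 fell in Neuron, and 7 rose and 5 fell in Oligodendrocyte, where 48%, 43.5% and 48.1% of all tested genes rose and 35.6%, 39.6% and 32.2% fell, with medians of 0.78, 0.64 and 0.68 beside 0.15, 0.06 and 0.19 for all genes. Amotl2, a YAP target and inhibitor, averaged 66.27 ± 4.69 CPM in Astrocyte, 119.6 ± 12 in Neuron and 18.5 ± 1.2 in NSC (SD, n = 3 for these). Its Astrocyte vs Neuron difference was -0.84 (adjusted p 1.07e-06), opposite in sign to that of Cyr61. The LIM protein gene Jub, now called Ajuba, was higher in Astrocyte than in Neuron (0.93, adjusted p 3.1e-06), as was the kinase gene Lats2 (0.42, adjusted p 0.000249). Jub averaged 22.38 ± 1.13 CPM in Oligodendrocyte (SD, n = 2), near its 23.88 ± 2.01 in Astrocyte (SD, n = 3). Lats2 was highest in Oligodendrocyte, at 106.5 ± 7.37 CPM (SD, n = 2). Ankrd1, another common YAP readout, was at 0.01 CPM in Oligodendrocyte and listed at 0 in the means of the other groups.

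Set against the other genes of their families, the smooth muscle forms were mostly minor. Per kilobase of exon, a scale on which genes can be compared (exon lengths from GENCODE M21, which may differ from the annotation used for counting), the mean level of Acta2 in Astrocyte was 20.6 CPM, while Actb and Actg1, the actins of all cells, were at 430 and 132. Tagln was at 2 CPM per kilobase there, and its relatives Tagln2 and Tagln3 were at 14.6 and 142. Cnn1 was at 0.115 and Cnn3, the non-muscle calponin, at 350. Among tropomyosins in NSC, Tpm4 was at 151, Tpm3 at 58, Tpm1 at 21.6 and Tpm2 at 0.614 CPM per kilobase. In Astrocyte these were at 24.7, 31.6, 13.2 and 0.182, so that Tpm1 lay nearer to Tpm4 there than in NSC. Myl9, at 37.1 CPM per kilobase in Astrocyte, was the one smooth muscle form that lay between non-muscle relatives, Myl12a (25.2) and Myl12b (42.6). Myl6, another light chain gene, was at 104.

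**Figure D3:**
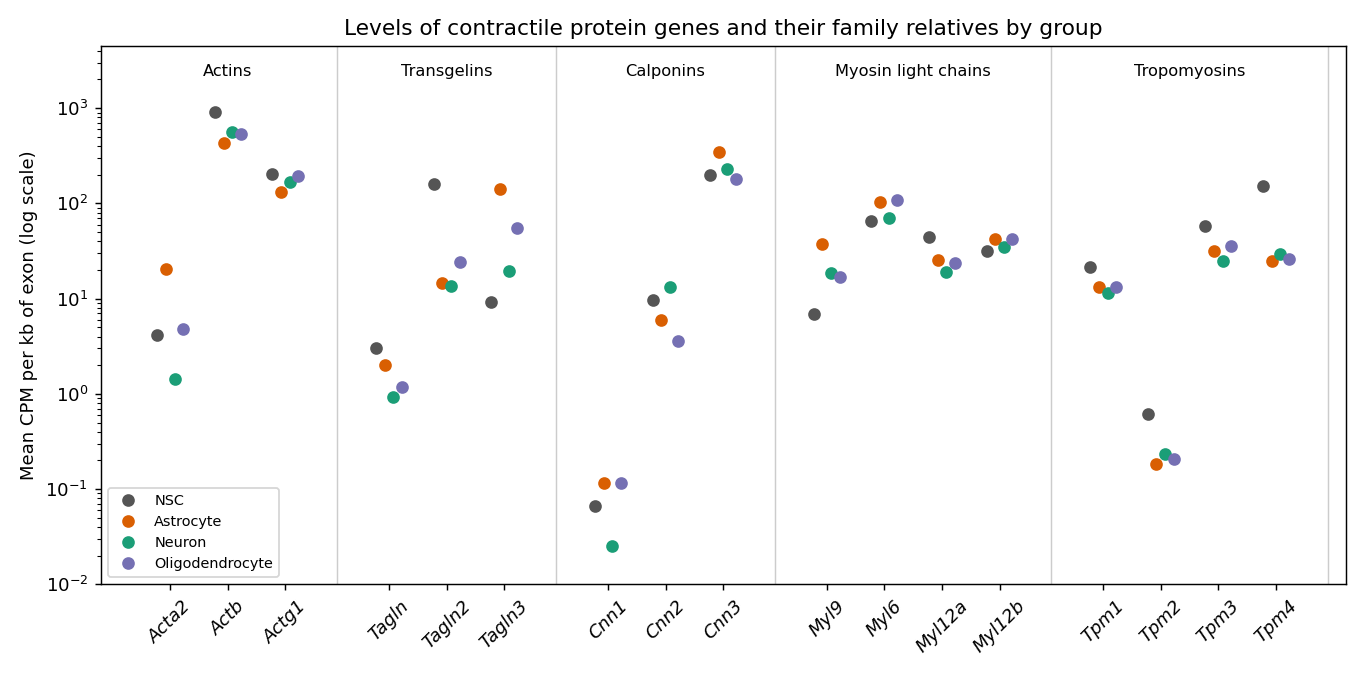
Mean level per kilobase of exon (vertical axis, log scale) of the actin, transgelin, calponin, myosin light chain and tropomyosin genes named in the text, by group. Each point is a group mean with no error shown. Cnn1 and Tpm2 lie below 1 CPM per kilobase in every group, and Tagln2 and Tpm4 drop from 161 and 151 in NSC to between 13.7 and 29.5 at day 4.

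The family relatives moved in both directions. Of 15 listed relatives 11 were tested, and Acta1, Actg2, Nov and Wisp1 were not. In Astrocyte vs NSC 5 rose and 6 fell, against 48% and 35.6% of all tested genes. Tagln2, an actin-bundling protein gene, averaged 24.16 ± 1.07 CPM in Astrocyte, 22.58 ± 1.15 in Neuron, 266 ± 15.4 in NSC (SD, n = 3 for these) and 39.62 ± 0.297 in Oligodendrocyte (SD, n = 2), and fell in Astrocyte against NSC by 3.41 on the log2 scale (adjusted p 2.64e-14). Tagln3, the neuronal form, rose instead, and averaged 175.8 ± 9.31 CPM in Astrocyte, 24.41 ± 0.754 in Neuron, 11.51 ± 1.17 in NSC (SD, n = 3 for these) and 69.07 ± 9.45 in Oligodendrocyte (SD, n = 2). It was 2.80 above Neuron in Astrocyte (adjusted p 3.59e-11), and its day 4 means had the same order as those of Acta2. Tpm4 and Tpm3, the main tropomyosin genes of non-muscle cells, fell with Tpm1, by -2.59 (adjusted p 1.51e-13) and -0.87 (adjusted p 2.22e-09) in Astrocyte. Cnn3 was higher in Astrocyte than in NSC (0.82, adjusted p 9.9e-08), and Cnn2 was lower (-0.67, adjusted p 1.73e-06). The heart actin gene Actc1 fell from 2.50 ± 0.127 to 0.137 ± 0.0751 CPM (SD, n = 3 each; -1.62, adjusted p 9.75e-10), a fall partly built in because it passed the filter only through NSC. Among the myosin light chains, Myl6 and Myl12b rose in Astrocyte against NSC by 0.67 (adjusted p 2.39e-05) and 0.41 (adjusted p 7.71e-05), and Myl12a fell (-0.80, adjusted p 2.97e-07).

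Of 18 listed actin cytoskeleton genes, all tested, 7 rose and 11 fell in Astrocyte against NSC, 6 rose and 11 fell in Neuron, and 7 rose and 7 fell in Oligodendrocyte. Of all tested genes 48%, 43.5% and 48.1% rose and 35.6%, 39.6% and 32.2% fell. In Astrocyte vs Neuron 6 were higher and 6 lower, against 40.3% and 22%, with a median of 0.12 beside 0.10 for all genes. Actn1, an actin crosslinker, averaged 41.82 ± 2.13 CPM in Astrocyte, 23.37 ± 0.776 in Neuron, 18.75 ± 0.469 in NSC (SD, n = 3 for these) and 43.12 ± 1.46 in Oligodendrocyte (SD, n = 2). Astrocyte exceeded Neuron by 0.81 (adjusted p 1.09e-07), and Oligodendrocyte vs Astrocyte did not pass (0.04, adjusted p 0.613). Pdlim7, a LIM protein of stress fibres, was 0.81 higher in Astrocyte than in Neuron (adjusted p 4.3e-05). Its mean in Oligodendrocyte, 12.72 ± 0.127 CPM (SD, n = 2), was near that in Astrocyte, 12.57 ± 2.47 (SD, n = 3). Fhl2, a LIM cofactor of serum response factor, went the opposite way, at 6.17 ± 0.582 CPM in Neuron against 1.1 ± 0.39 in Astrocyte (SD, n = 3 each; -1.78, adjusted p 1.24e-07). Actb fell in Astrocyte against NSC by 1.09 (adjusted p 1.01e-07), a change opposite to that of Acta2 in the same libraries.

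S1pr3, which encodes a receptor for the serum lipid sphingosine-1-phosphate, rose in Astrocyte by 6.90 against NSC (adjusted p 2.26e-15) and averaged 177.9 ± 7.78 CPM there, 46.13 ± 5.38 in Neuron, 0.500 ± 0.156 in NSC (SD, n = 3 for these) and 55.28 ± 3.46 in Oligodendrocyte (SD, n = 2). Like Acta2, it was highest in Astrocyte, 1.93 above Neuron (adjusted p 1.98e-09). S1pr3 passed the filter only through day 4 libraries, so its rise against NSC is partly built in.

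Because Acta2, Tagln, Cnn1 and Myl9 mark vessel wall cells, markers of other cell types were read beside them. Summed over 9 smooth muscle and pericyte genes, levels were 42.98 to 44.99 CPM in NSC, 93.18 to 97.49 in Astrocyte, 73.58 to 95.84 in Neuron and 44.85 to 54.10 in Oligodendrocyte. Pdgfrb and Notch3 made up most of this sum. Pdgfrb was at 37.54 ± 3.52 CPM in Neuron against 41.92 ± 0.41 in Astrocyte (SD, n = 3 each), a difference that did not pass (0.16, adjusted p 0.162), where Acta2 differed 14.3-fold. In the other comparisons it moved in the direction of Acta2 in Astrocyte vs NSC (5.09, adjusted p 2.83e-14) and Oligodendrocyte vs Astrocyte (-2.14, adjusted p 4.27e-09), and opposite to it in Neuron vs NSC (4.93, adjusted p 3.41e-14) and Oligodendrocyte vs Neuron (-1.98, adjusted p 3.68e-09). Of the 9 genes 5 were tested. Against NSC 4 of these rose in Neuron and 3 in Oligodendrocyte, where 43.5% and 48.1% of all tested genes rose. In Astrocyte 4 rose too, against 48% of all tested genes. Among the 4 were Rgs5, a pericyte marker (0.88, adjusted p 6.09e-07, 1.38 CPM at most), and Vtn (1.56, adjusted p 6.05e-09), whose mean was 2.29 CPM in Astrocyte and 4.4 in Oligodendrocyte. Rgs5 passed the filter only through Astrocyte and Neuron, and Pdgfrb and Vtn only through day 4 libraries, so their rises are partly built in. The 4 genes that were not tested were Kcnj8, which reached 0.05 CPM at most in any library, Abcc9 (0.14), Des (0.32) and Myh11, the smooth muscle myosin (1.12). Lmod1, a smooth muscle leiomodin that passed the filter only through Astrocyte, was at 0.590 ± 0.209 CPM in Neuron against 3.77 ± 0.497 in Astrocyte (SD, n = 3 each; 1.59, adjusted p 5.73e-08). In the list of 8 fibroblast genes, Col1a1, Col1a2, Col3a1, Dcn and Lum reached no more than 0.52 CPM in any library, and the sum was 54.03 to 57.95 CPM in Astrocyte and 106.6 to 115.3 in Oligodendrocyte, carried by Fn1 and Thy1. The 6 endothelial genes summed to 5.57 to 7.37 CPM in Astrocyte and 1.18 to 2.02 in Neuron, with Cdh5 and Cldn5 at 0.03 CPM or less. Kdr carried most of that sum, with a mean of 5.99 CPM in Astrocyte and 1.28 in Neuron, and it was higher in Astrocyte (1.62, adjusted p 6.86e-08), as Acta2 was. The 4 microglia genes summed to 1.32 CPM at most. The part of these cells in the results was not tested beyond these levels.

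The genes whose levels ran most alike to each of the 8 over the 11 libraries were found by Pearson correlation of log2(CPM + 1) among 9373 genes averaging 10 CPM or more. For Acta2 they were Plekhh3 (r = 0.989), Nmt1 (r = 0.982) and Meis2 (r = 0.977). Meis2, a homeobox gene, had a mean of 146.1 CPM in Astrocyte and 90.2 in Neuron, a far narrower range than Acta2. For Myl9 they were Itm2c, Dlx2 and Hspa2 (r = 0.992 each), for Cyr61 Lrrc57 (r = 0.997), P2rx6 (r = 0.995) and Acox3 (r = 0.995), and for Ctgf Lysmd4 (r = 0.995), 1810030O07Rik (r = 0.994) and Rab21 (r = 0.994). For Tagln they included Galk1 and Scamp4 (r = 0.968 each), and they were for Srf Exosc2 (r = 0.994), Hnrnpl (r = 0.99) and Nup88 (r = 0.989), for Tpm1 Wdr12 (r = 0.995), Ppm1g (r = 0.993) and Eif2b1 (r = 0.992), and for Tpm2 Polr2e (r = 0.968), Gm10075 (r = 0.967) and 1110059E24Rik (r = 0.963). Libraries of a group share their medium, so such correlations mostly restate the 4 group means. Among the 8 genes themselves, Ctgf and Cyr61 ran together (r = 0.97), as did Tpm1 and Srf (r = 0.95), while Acta2 correlated with Srf at -0.11, with Tagln at 0.43 and with Myl9 at 0.55.

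**Figure D4:**
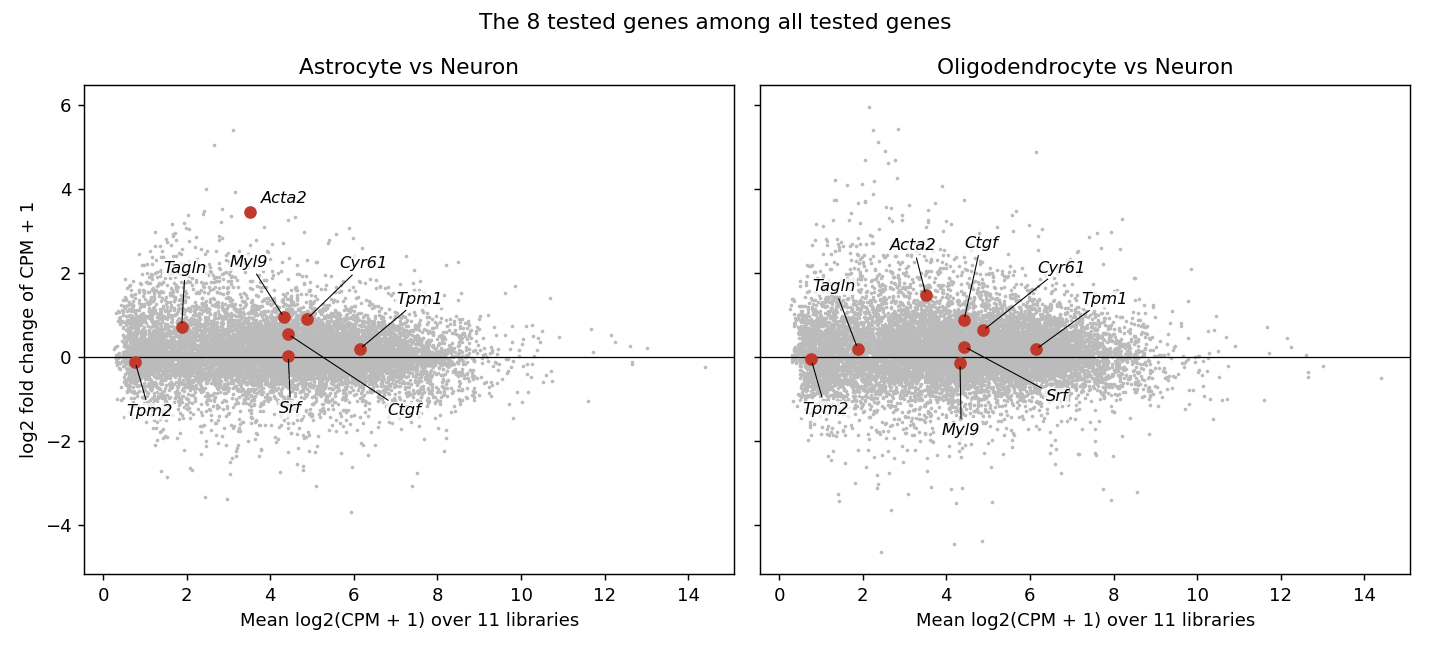
The 8 tested genes (red) among all 13342 tested genes (grey), as log2 fold change in Astrocyte vs Neuron (left) and Oligodendrocyte vs Neuron (right) against the mean log2(CPM + 1) over the 11 libraries. Acta2 stands near the upper edge on the left (3.46), and the other 7 lie within the body of the cloud.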

How the data were processed

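RNA was measured in 11 libraries made with a poly(A) kit that keeps strand, per the labels' protocols. The authors deposited CPM values per library, rounded to 2 decimals, for 37991 genes. The submitters' processing notes name NCBIM37 (mm9), bcl2fastq 1.8.4, TopHat2 2.0.8, HTSeq 0.6.1, edgeR 3.2.4, R 3.0.0 and HOMER without roles. The authors' group mean and standard deviation columns were used only for checking (means differed by 0.00667 CPM at most). Listed genes made up 74.95% to 80.25% of the CPM total of a full library. Low values (under 3 CPM) lay on even steps in 99.73% to 100% of cases, but only 24.2% to 61.5% were within 0.1 of a whole read, so no count test was run.

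Values were taken as log2(CPM + 1). The 13342 genes that reached 1 CPM in 2 libraries or more were fitted with limma 3.58.1 in R 4.3.3 (1 mean per group, all libraries, eBayes with trend, 7 residual and 5.96 prior degrees of freedom), two-sided, with Benjamini-Hochberg adjustment within each of 6 comparisons. The fit was tested on simulated data. Alternatives changed the pseudocount (0.1, 5), filter (none, 5 CPM), scaling, trend, groups in the fit and replicate block, and left out each library. Pathway genes were named when they were among the 3 with the largest absolute change in Astrocyte vs Neuron. Tested family relatives, and genes most alike to each of the 8 tested genes, were named too. Fos, Fosb and Mcl1 were named outside this rule, for calls lost after rescaling. Some genes, and results that need them, are not reported here. Naming Myocd, Ankrd1, Actb and Actg1 was decided after their values were seen. The 9 genes and all lists were chosen with earlier results of these data known. Replicate numbers are called biological replicates by the series, but what they share is not given, so p-values measure the spread between these libraries.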

Additional observations from a re-analysis of the deposited data

Results flagged for a closer look

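The following differences between media passed the test, which makes the changes from the shared day 0 libraries differ between the media by the same amounts. Acta2 differed by a log2 fold change of 3.46 between Astrocyte and Neuron. It was 1.47 for Oligodendrocyte vs Neuron, while Oligodendrocyte vs Astrocyte gave -1.99. Acta2 had moved in opposite directions from day 0 in Astrocyte and Neuron. Myl9 differed by 0.95 in Astrocyte vs Neuron and -1.09 in Oligodendrocyte vs Astrocyte, and Tagln by 0.72 and -0.53 in those comparisons. Cyr61 differed by 0.91 in Astrocyte vs Neuron and 0.64 in Oligodendrocyte vs Neuron, and Ctgf by 0.55 and 0.88. Tpm1 differed by 0.19 in both of those comparisons. Srf was higher in Oligodendrocyte, by 0.25 over Neuron and 0.21 over Astrocyte. No group was large enough for a test of single outlying libraries.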

How the results depend on the processing

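For the 8 tested genes, 36 of 48 gene and comparison results kept their direction and their side of the threshold under every alternative that was run, among them all Astrocyte vs NSC and Neuron vs NSC results. The count of the 8 higher in Astrocyte than in every other group was 2 except with quantile normalization, where Cyr61 made it 3 (-0.36 in Oligodendrocyte vs Astrocyte, adjusted p 0.0398). The members called in Astrocyte vs Neuron went from 6 to 4 with median-of-ratios scaling and with quantile normalization and to 5 with the replicate block, and ranged from 4 to 6 leaving out single libraries. The cause of the exceptions was not tested. Signs that turned belonged to differences that were not called: Acta2 in Oligodendrocyte vs NSC (-0.14 with quantile normalization), Srf in Astrocyte vs Neuron (-0.06 with median-of-ratios scaling, -0.14 with quantile normalization), Tpm2 in Oligodendrocyte vs Neuron (-0.13 to 0.03 leaving out single libraries, with 0.03 without Neuron replicate 2 and 0 without Oligodendrocyte replicate 2) and in Oligodendrocyte vs Astrocyte (-0.01 to 0.16), and Tpm1 in Oligodendrocyte vs Astrocyte (-0.06 to 0.03 leaving out single libraries, 0 without Astrocyte replicate 1, 0.01 without Oligodendrocyte replicate 1). With the replicate block Tpm1 there was 0.03. Same-numbered libraries of different groups deviated from their group means with correlations of -0.51 to 0.41 (6 of 15 above 0.1). For libraries with different numbers the correlations were -0.54 to 0.54 (7 of 30 above 0.1). Deviations from a mean of 2 or 3 libraries are tied to each other, so this check cannot decide whether the numbers pair the libraries. Of the block results, the call for Ctgf in Astrocyte vs Neuron (adjusted p 0.0679) and that sign for Tpm1 were the 2 that changed. The members called in Oligodendrocyte vs Neuron went from 5 to 3 with median-of-ratios scaling and 3 with quantile normalization, and ranged from 3 to 5 leaving out single libraries. In Oligodendrocyte vs Astrocyte they ranged from 2 to 4. With a pseudocount of 5, genes changed at least 2-fold over the whole table numbered 2784 in place of 4238 in Neuron vs NSC, 2819 in place of 4263 in Oligodendrocyte vs NSC, 598 in place of 1246 in Astrocyte vs Neuron, 904 in place of 1673 in Oligodendrocyte vs Neuron and 595 in place of 1060 in Oligodendrocyte vs Astrocyte. Tpm2 did not pass a filter of 5 CPM and has no value there, nor had it in some fits of fewer libraries. Depth limits Cnn1 and Tpm2 most, with an estimated 1 to 23 and 18 to 107 reads per library.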
